A study of Mus musculus with 8 samples.

Results

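Integrins are the receptors that tie a cell to the matrix around it, and laminins are the basement membrane proteins that many of them hold. Genes of both families were read here in cardiomyocytes of newborn mice. All rows of the deposited count table with a symbol of the form Itga followed by digits or lower-case letters, Itgb1 to Itgb8, or Lama, Lamb or Lamc with a single digit were taken, which gave 37 of 48440 rows: 18 integrin α subunits, 8 integrin β subunits, and 5 α, 3 β and 3 γ chains of laminin. The cells were purified from C57BL6/J hearts taken 2 days after birth, and each of 4 litters gave 1 library from a male and 1 from a female, 8 in all. The labels name no treatment and no engineered allele. The groups were therefore 4 males and 4 females, or 4 litters of 2 pups each. How the cells were purified is not given in the sources used here.

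Each integrin is a pair of 1 α and 1 β subunit, and the α subunit largely sets the ligand. Itga3, Itga6 and Itga7 pair with Itgb1 to bind laminin, Itga1, Itga2, Itga10 and Itga11 bind collagen, and Itga5, Itga8, Itgav and Itga2b bind RGD motifs, as in fibronectin. Each laminin is a trimer of an α, a β and a γ chain. In textbook accounts, the cardiomyocyte leaves a set with Itga1, Itga5 and Itga6 in fetal and newborn life for Itga7 in the adult, Itgb1 moves by splicing from the β1A to the β1D form, and Lama2 gives the main laminin α chain of adult striated muscle. Counts per gene sum all splice forms, so β1A and β1D, and the splice forms of Itga6 and Itga7, could not be separated.

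Total counts ran from 14226342 to 24910243 per library, of which the members took 0.217 to 0.253%. Values are given as CPM, counts per M (mega) reads on tested genes with library sizes scaled by TMM (trimmed mean of M-values). The 10 cardiomyocyte markers summed to between 72600 and 97900 CPM, and the 8 fibroblast markers to between 32.4 and 243 CPM. The 10 endothelial markers summed to between 21.3 and 184 CPM, highest in both pups of litter 2. Immune cells were close to undetected: Ptprc, the pan-leukocyte antigen, had 0 counts in 7 libraries and 1 in the other, all 5 neutrophil and 6 lymphocyte markers stayed at 10 counts or fewer, and 7 of 8 macrophage markers did. Mitochondrial genes took 13.4 to 15.2% of counts, except for 18.5% in the litter 4 male. Over the 12 same-sex pairs, differences between libraries were 10.4 to 49.1 times sampling noise (chi-square per degree of freedom), so none was counted as a repeat of another.

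Of the 37 members, 24 passed the filter on low counts and were tested with 13771 genes in all: 15 of 26 integrin subunits and 9 of 11 laminin chains. The 13 others had at most 20 counts in any library. Itgb3 had 3 to 20, Itga2 0 to 11, Itgb4 2 to 11, Itga4 0 to 9, Lama1 0 to 8 and Itgae 0 to 5 counts. Itga11, Itgb7, Itgad, Itgb2, Itgam, Itgax and Lamc3 had at most 3, and a count of 0 allows up to 0.12 CPM in the deepest and 0.211 CPM in the shallowest library (3 counts; counting error alone). These include Itga4, the VCAM1-binding subunit, Lama1, a chain of early embryonic basement membranes, and Itgb4, the partner of Itga6 in epithelial hemidesmosomes.

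Promoter sequence is shown for the laminin β chains Lamb1 and Lamb2, which moved in opposite directions between litters. The 190 bases from 250 to 61 before the RefSeq start (GRCm38.p6) are given for Lamb1 and for Itgb6, which had the widest range between litters. For Lamb2 the last 66 of these bases lie inside the gene as GENCODE draws it and are left out, so 124 bases are given. Of 37 members 23 had a promoter entry, and so did 7 of the 9 that differed between litters, 6 of them within 500 bases of the GENCODE start. Capitals mark matches, on either strand, to GGGCGG, which is the GC-box element, to TATAAA, the core promoter box named for its letters, to CANNTG, which is the E-box element bound by many helix-loop-helix factors, or to CATTCC, which is the core of the MCAT element bound by TEAD factors. No match overlapped one of another motif. The positions are chr12:31265043-31265232 for Lamb1 (plus strand), chr9:108479612-108479735 for Lamb2 (plus strand) and chr2:60722664-60722853 for Itgb6 (minus strand).
Lamb1: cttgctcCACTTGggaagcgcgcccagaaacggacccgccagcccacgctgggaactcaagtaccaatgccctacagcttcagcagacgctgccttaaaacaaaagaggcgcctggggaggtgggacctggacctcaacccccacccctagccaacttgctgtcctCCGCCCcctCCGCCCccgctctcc
Lamb2: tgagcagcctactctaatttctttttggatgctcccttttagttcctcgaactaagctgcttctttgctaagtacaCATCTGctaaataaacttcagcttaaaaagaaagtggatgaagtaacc
Itgb6: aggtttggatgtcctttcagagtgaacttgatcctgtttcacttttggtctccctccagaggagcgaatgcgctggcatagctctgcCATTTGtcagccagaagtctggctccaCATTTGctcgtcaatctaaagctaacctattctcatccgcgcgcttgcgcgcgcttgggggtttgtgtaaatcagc
The Lamb1 stretch held 2 GC boxes and 1 E-box at a GC content of 64.2%, the shorter one of Lamb2 1 E-box at 37.9%, and that of Itgb6 2 E-boxes at 51.1%. Over 32851 stretches of 190 bases before RefSeq starts, 22.8% held a GC box, 57.3% an E-box, 8.73% a TATA box and 10.2% an MCAT core, with a median GC content of 51.6%. Over the 124 bases shown for Lamb2 the shares were 13.3, 42.9, 6.22 and 6.68%. TATA and MCAT letters were absent from these 3 stretches.

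Levels of different genes were set side by side per kb of exon (CPM per kb, with exon lengths from GENCODE M21). Itgb1, the β subunit shared by most cardiomyocyte integrins, stood first at 140 ± 14.8 CPM per kb (SD over 8 libraries), above 98.2% of the genes tested or level with them. Its lowest library, at 116, lay above the highest library of the next gene, Lamb2, at 50.3. Lamb2 (41.4 ± 6.73), Lamc1 (36.9 ± 2.95), Itga5 (28 ± 2.28) and Lamb1 (27.6 ± 4.15) followed, and of these neighbours Lamc1 and Itga5 alone did not overlap in range. Itgb5, a partner of Itgav, had 19.6 ± 2.43 and Itga9, which binds tenascin and other matrix ligands, 14.4 ± 3.95 CPM per kb.

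A run of 5 genes with overlapping neighbours came next: Lama5 at 11.9 ± 1.25, Lama4 at 10.3 ± 0.668, Itga3 at 10.2 ± 0.799, Lama2 at 9.93 ± 1.06 and Itga7 at 6.79 ± 1.54 CPM per kb. Itga1, Lamb3, Itgav and Itga6 had 1.54 to 1.84 CPM per kb with overlapping ranges, and Lama3, Itgb6, Itgal, Itga2b, Itga10, Itga8 and Itgb8 had means of 0.691 down to 0.0836. With the longest transcript in place of all exons, Itgb1 stayed first, but Lamb1 moved from place 5 to 2 (47.4 CPM per kb) and Lamb2 from 2 to 3 (44.7), so the order of these 2 depends on the gene model.

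**Figure D1:**
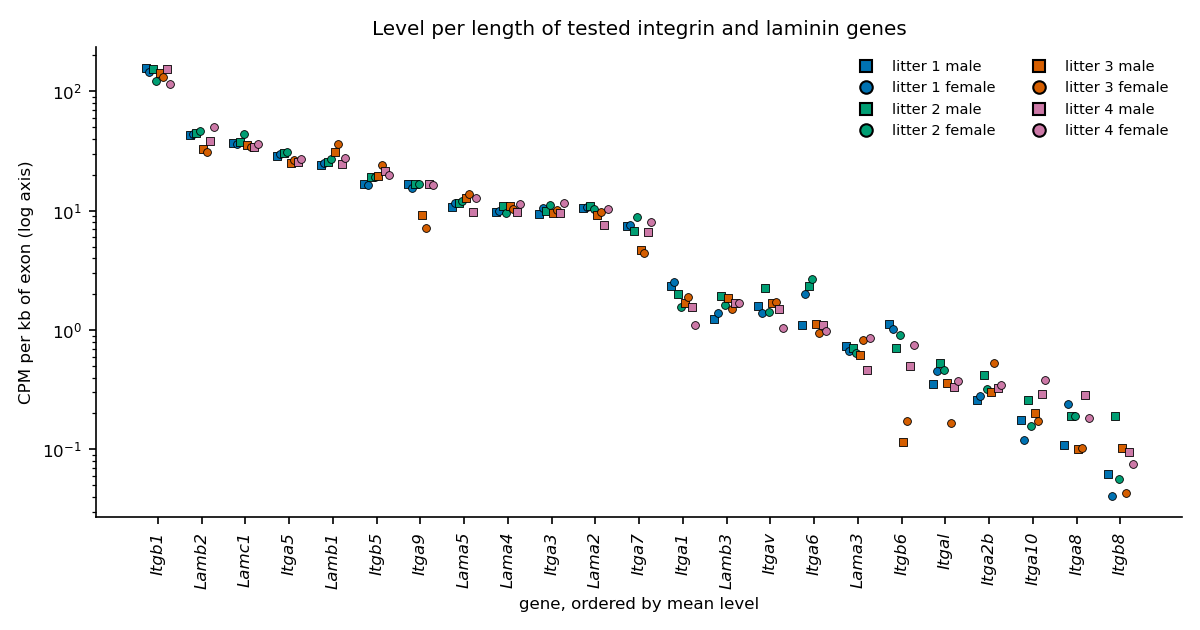
Each point is 1 library, coloured by litter, with squares for males and circles for females; the vertical log axis gives CPM per kb of exon and the genes run from the highest to the lowest mean. Itgb1 stands apart at the top with 116 to 156, and Itga9, Itga7 and Itgb6 show the 2 libraries of litter 3 below the rest.

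Among the laminin-binding α subunits, Itga3 and Itga7 made up most of the RNA and Itga6 the least. Itga7 took 36.2 ± 4.39% of the summed level per length of Itga3, Itga6 and Itga7 (SD, n = 8), Itga3 55.7 ± 5.47% and Itga6 8.13 ± 2.87%. The share of Itga7 was 41.2, 35.4, 30.6 and 38.4% in the males of litters 1 to 4 and 37.5, 39.1, 28.7 and 38.7% in the females. Both pups of litter 3 were lowest, and their share of Itga3 was highest, at 62 and 65.3% against 49 to 56.5%. Lengths matter here: with the longest transcript the mean share of Itga7 was 46.8%.

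Set against Itga7, the fetal-type subunits fell on both sides. Itga5, the fibronectin receptor subunit, was 3.41 to 5.97 times as high as Itga7 per length in the 8 libraries, and 1.89 to 3.32 times with longest transcripts. Itga6 was 0.124 to 0.349 times as high as Itga7 and Itga1, a collagen and laminin receptor subunit, 0.139 to 0.425 times. So on this day the fetal-type Itga5 exceeded, and the fetal-type Itga1 and Itga6 fell short of, the adult-type Itga7 in every library, with either gene length. Itga3 was 1.25 to 2.28 times as high as Itga7, but 0.731 to 1.33 times with longest transcripts, so their order depends on the gene length. Both ratios of Itga5 in litter 3 (5.34 and 5.97) lay above the other 6 (3.41 to 4.49). Itga5 itself was not higher there: its log2 difference from the other litters was -0.16 and that of Itga7 was -0.71.

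Other families were each led by 1 or a few genes. Itga5 held 93 ± 1.18% of the RGD-binding group, with 5.24 ± 1.06% for Itgav, 1.16 ± 0.313% for Itga2b and 0.583 ± 0.236% for Itga8. Itgb1 held 87.2 ± 1.93% of the β subunits and Itgb5 12.3 ± 2.03%, and the other 6 were each under 1%. Lamc1 held 93.2 ± 0.762% of the γ chains. Among laminin α chains Lama5 had 36.2 ± 2%, Lama4 31.5 ± 1.94%, and Lama2 30.2 ± 2.38%, with 2.09 ± 0.269% for Lama3. Their order depends on the gene length: with longest transcripts the means were 20.6 CPM per kb for Lama4, 16.9 for Lama2 and 11.9 for Lama5. Lama4 and Lama5 are the chains best known from vessel walls, and Lama2 is the one of the muscle fibre. Lama2 was at 31.9 to 33.1% in the 4 libraries of litters 1 and 2 and at 27.5 to 29% in those of litters 3 and 4.

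The β chain shares also set litter 3 apart. Lamb2 had 63.2, 61.8, 50 and 59.1% of the β chain level in males of litters 1 to 4, and 62.2, 62.1, 45.1 and 63.2% in females. The 2 pups of litter 3 lay below the 6 others, which ran from 59.1 to 63.2%. The ratio of Lamb2 to Lamb1 per length was 1.06 and 0.856 in litter 3 and 1.54 to 1.82 elsewhere. A ratio within a library does not depend on scaling between libraries, and a change of gene length would shift all 8 ratios by the same factor. With longest transcripts the mean share of Lamb2 was 47.4% in place of 58.4%.

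**Figure D2:**
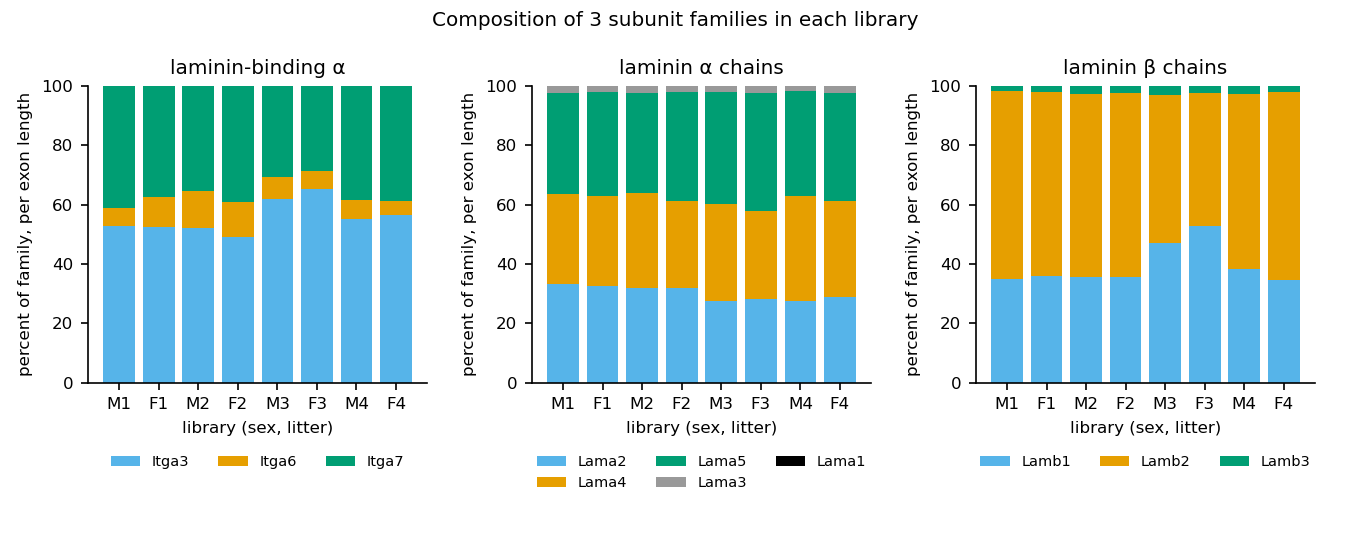
Stacked bars give, for each library (M male, F female, with the litter number), the percent of the summed level per exon length within laminin-binding α subunits, laminin α chains and laminin β chains. In M3 and F3 the Lamb2 segment shrinks to 50 and 45.1% and the Itga7 segment to 30.6 and 28.7%.

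Litters were compared in a model with sex, to ask which members vary between families of pups. In edgeR's quasi-likelihood test of the 3 litter terms, 9 of 24 tested members (37.5%) passed an adjusted p-value of 0.05, against 32.1% of all genes tested, so the members' share was near the background. They were 5 α subunits (Itga1, Itga5, Itga6, Itga7, Itga9), 2 β subunits (Itgb5, Itgb6) and both main laminin β chains (Lamb1, Lamb2). None of the tested laminin α or γ chains passed. Without litter 3 the count was 5 of 24 (20.8%), namely Itga1, Itga6, Itgav, Itgb5 and Itgb6, while over all genes it fell to 13.7%. In bulk samples such as these, fewer cells of a type and less RNA per cell cannot be told apart, and litter cannot be told apart from the day or round of preparation, which the labels do not give.

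Litter 3 had the most member calls. Against the mean of the other 3 litters, 5 members were lower in it (20.8%, against 14.8% of all genes) and 3 were higher (12.5%, against 13.6%), with a median of -0.08 over the 24 and 0.00 over all genes. Over all genes 47.9% of these calls were higher under TMM and 58.8% when only library size was used, and the members had 5 lower and 3 higher under both. Both pups of litter 3 lay below the 6 other libraries for 6 members, Itga7, Itga8, Itga9, Itgb6 and Lamb2 among them (25% against 16.4% of all genes), and above them for Lamb1 alone (4.17% against 15.1%).

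Itga9 (chr9:118606690-118901003, plus strand, GRCm38, as for all gene positions here, from GENCODE M21) encodes the partner of Itgb1 that binds tenascin C, osteopontin and VCAM1. It had 129, 129, 70.2 and 129 CPM in the males of litters 1 to 4 and 119, 130, 54.8 and 126 CPM in the females. Both pups of litter 3 were low, and the other 6 libraries lay within 119 to 130 CPM. The log2 difference of litter 3 was -1.02 (SE 0.08, edgeR adjusted p = 4.37e-06), and it ran from -1.19 without the male of litter 3 to -0.88 without its female. Among litters 1, 2 and 4 the range was 0.07 on the log2 scale (adjusted p = 0.792), so the calls for litters 1, 2 and 4 (0.29, 0.38 and 0.35 higher) rest on litter 3 being in their comparison group: without it they were -0.05, 0.05 and 0.01.

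Itgb6 (chr2:60598292-60722643) encodes the partner of Itgav that binds latent TGF-β and is best known from epithelia. It had 7.95, 4.99, 0.824 and 3.57 CPM in males and 7.24, 6.52, 1.24 and 5.33 CPM in females, from 18 to 198 counts. Litter 3 was lowest in both sexes with 18 and 19 counts, and litter 1 was highest in both. Litter 3 differed by -2.52 (SE 0.24, edgeR adjusted p = 2.37e-05) and litter 1 by 1.37 (SE 0.17, adjusted p = 0.000367), which was 0.60 without litter 3 (adjusted p = 0.0473). Of the 9 called members it was the one whose range over litters passed in all 12 fits that left out a library or a litter, from 0.77 to 3.22. Litter 2 was called higher as well (0.82, adjusted p = 0.0232), which ended without litter 3 (-0.03) or without either of its own pups (0.89 and 0.74), and with all libraries thinned to the smallest (0.65, adjusted p = 0.0724).

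Itga7 (chr10:128933818-128958282), the adult-type laminin receptor subunit of muscle, had 59.9, 54.6, 37.9 and 53.9 CPM in males and 61.1, 71.6, 35.9 and 64.6 CPM in females. Both pups of litter 3 were below the lowest of the others, at 53.9 CPM. The log2 difference was -0.71 (SE 0.09, edgeR adjusted p = 2e-04), and it stayed between -0.87 and -0.57 without any 1 library or litter. Without litter 3 the range over litters fell from 0.76 to 0.08 (adjusted p = 0.795). Itga3 (chr11:95044474-95076801), its nearest relative in level, had 54 to 66.5 CPM in the 8 libraries and a difference of -0.08 in litter 3 (SE 0.07, adjusted p = 0.407).

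Lamb1 and Lamb2, the β chains of most laminins, went opposite ways in litter 3. Lamb1 (chr12:31265234-31329644) had 238, 253, 306 and 246 CPM in males and 249, 267, 362 and 274 CPM in females, so litter 3 lay above all others, with a log2 difference of 0.39 (SE 0.06, edgeR adjusted p = 0.00047). Lamb2 (chr9:108479736-108490530) had 263, 270, 199 and 233 CPM in males and 266, 285, 190 and 306 CPM in females, and litter 3 lay below all others by -0.47 (SE 0.08, adjusted p = 0.00141). Both calls held in each fit without 1 library or litter, at 0.31 to 0.46 for Lamb1 and -0.59 to -0.36 for Lamb2. For Lamb2 the range over all litters missed the threshold when the litter 3 female was left out (0.40, adjusted p = 0.101). The Lamb1 stretch printed above is the GC-rich one with 2 GC boxes, and the shorter one of Lamb2 has none. Both boxes lie near the end of the Lamb1 stretch, a part that is left out for Lamb2. Any part of these elements in the litter differences was not tested.

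Lama5 and Itgb5 were higher in litter 3 by 0.22 each (adjusted p = 0.0347 and 0.049), and Itga6 was lower by -0.59 (adjusted p = 0.0295). For these 3 the litters overlapped, and the calls were fragile. Lama5 had 123, 132, 145 and 112 CPM in males and 131, 137, 158 and 146 CPM in females, and lost its call in 6 of the 11 fits without a library or litter, where its difference ran from 0.17 to 0.27. Itgb5 lost it in 6 of 11 too, with 0.06 left without the female of litter 3. For Itga6 the difference was -0.34 without the female of litter 3, -0.51 without the male of litter 4 and -0.26 without litter 2, none past the threshold.

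**Figure D3:**
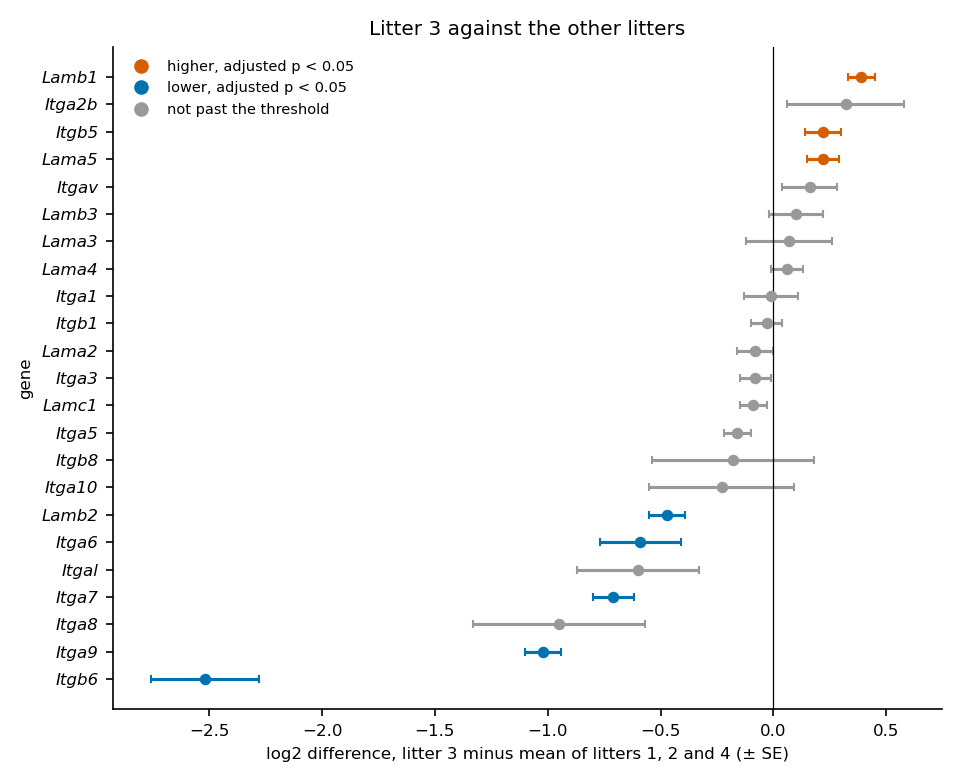
Points give the log2 difference of litter 3 from the mean of litters 1, 2 and 4 for tested members, with bars of 1 SE; orange and blue mark an adjusted p-value under 0.05. Itgb6, Itga9 and Itga7 lie furthest left among the called genes, at -2.52, -1.02 and -0.71, and Lamb1 furthest right at 0.39.

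Other cell types and cardiomyocyte markers moved in litter 3 at the same time. Of the fibroblast list 6 of 8 genes were lower there, and its sum was 32.4 and 51.8 CPM against 108 to 243 CPM. Mural markers were at 898 and 921 CPM against 1340 to 1520 CPM, with 5 of 8 lower. Acta2, which immature cardiomyocytes also make, had 343 and 369 CPM there against 804 to 1040 CPM, and Abcc9, the other large part of the sum, 476 and 481 against 391 to 510 CPM. The 10 cardiomyocyte markers had 72600 and 73700 CPM against 86200 to 97900 CPM, with 5 lower. Endothelial markers, at 24.4 and 24.5 CPM, lay within the range of the others (21.3 to 184), although 7 of 10 were lower against the mean. Erythroid markers were at 184 and 529 CPM against 97.7 to 243 CPM, and epicardial ones at 23.5 and 23.8 against 14.8 to 20 CPM. Most of the epicardial sum was Tbx18, at 21.1 and 21.4 against 9.89 to 13.7 CPM, and the list had 1 gene higher and 3 lower in litter 3, with a median of -0.51. The part of these cells in the member differences was not tested. For Itgb1 the litter 3 difference was -0.03 (SE 0.07, adjusted p = 0.748).

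Itga6 (chr2:71745616-71858416), the fetal-type laminin receptor subunit that endothelial cells also carry, was highest in litter 2. Males had 10, 21.3, 10.2 and 10.1 CPM and females 18.1, 24.2, 8.46 and 8.94 CPM. Litter 2 differed from the others by 1.07 (SE 0.16, edgeR adjusted p = 0.00211) and kept its call in each of 11 fits without a library or litter, from 0.95 to 1.27. Without litter 2, the range over the other litters was 0.55 (adjusted p = 0.0856). Litter 1 was split, with its female near litter 2 and its male near litters 3 and 4.

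The endothelial list was split in the same places. Its sum was 21.3, 114, 24.5 and 42.7 CPM in males and 80.3, 184, 24.4 and 33.4 CPM in females. The 3 libraries with most endothelial RNA, the 2 of litter 2 and the female of litter 1, were the 3 with more than 18 CPM of Itga6, and the other 5 had 8.46 to 10.2 CPM at 21.3 to 42.7 CPM of the list. All 10 endothelial genes passed the litter test. For Itga7 the highest library, the female of litter 2 at 71.6 CPM, also had the highest endothelial sum, both litter 3 libraries had low values of each, and the male of litter 1, with the lowest sum, had 59.9 CPM. The part of endothelial cells in the level of Itga6 was not tested. Of the windows of 100 bases in Itga6, 5.4% also occur in Gm29397.

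**Figure D4:**
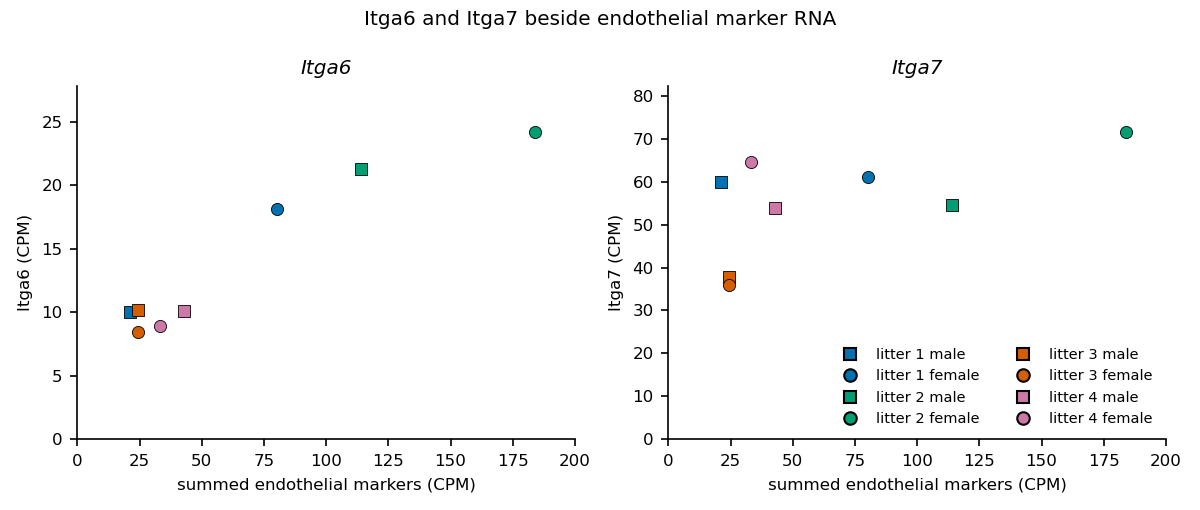
Each point is 1 library, with the summed CPM of 10 endothelial markers on the horizontal axis and the CPM of Itga6 (left) or Itga7 (right) on the vertical axis. For Itga6 the 3 libraries at 80.3, 114 and 184 CPM of the markers sit at 18.1, 21.3 and 24.2 CPM, above the 5 others, while for Itga7 the 2 libraries of litter 3 are lowest.

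Calls for the other litters were fewer. Among members litter 1 had 4 higher and 2 lower (7.86 and 5.41% of all genes), litter 2 had 3 higher and 0 lower (3.3 and 0.879%, in either direction 4.18%), and litter 4 had 1 higher and 1 lower (4.71 and 5.8%). Over all genes 44.8% of the litter 4 calls were higher under TMM and 14.9% when only library size was used, where the members had 1 higher and 4 lower. The calls included Itga1, Itga9 and Itgb6 up and Itgb5 and Lamb1 down in litter 1, Itga6, Itga9 and Itgb6 up in litter 2, and Itga9 up and Itga1 down in litter 4.

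Itga1 (chr13:114953096-115101964), of the fetal-type set, was high in litter 1 and low in litter 4. It had 43.7, 37.6, 31.2 and 29 CPM in males and 47.4, 28.8, 35.1 and 20.6 CPM in females. Litter 1 lay above all other libraries, by 0.61 on the log2 scale (SE 0.11, edgeR adjusted p = 0.00448), and litter 4 differed by -0.58 (SE 0.12, adjusted p = 0.0143) with overlap. Litter 1 was not past the threshold without its female (0.43, adjusted p = 0.164), nor litter 4 without its own (-0.36, adjusted p = 0.199). In Itga1 4.5% of the windows also occur in Gm49395.

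Itga5 (chr15:103344286-103366763) varied little, with 141, 149, 123 and 126 CPM in males and 148, 153, 131 and 134 CPM in females. Litter 2 lay above the other 6 libraries, with a range over litters of 0.25 (edgeR adjusted p = 0.0319). That call was lost in 9 of 12 fits without a library or litter. Itgb5 (chr16:33829665-33949338) had 59, 68.1, 70.1 and 76 CPM in males and 58.8, 67.9, 85.2 and 70.8 CPM in females. Litter 1 was below all others, by -0.31 (SE 0.08, adjusted p = 0.0229), which without either of its pups was -0.34 and -0.27 and not past the threshold. In litter 1, Lamb1 was also called lower (-0.21, adjusted p = 0.0328), and it was -0.09 without litter 3. Of the windows of Itgb5, 6.7% also occur in Gm38317.

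**Figure D5:**
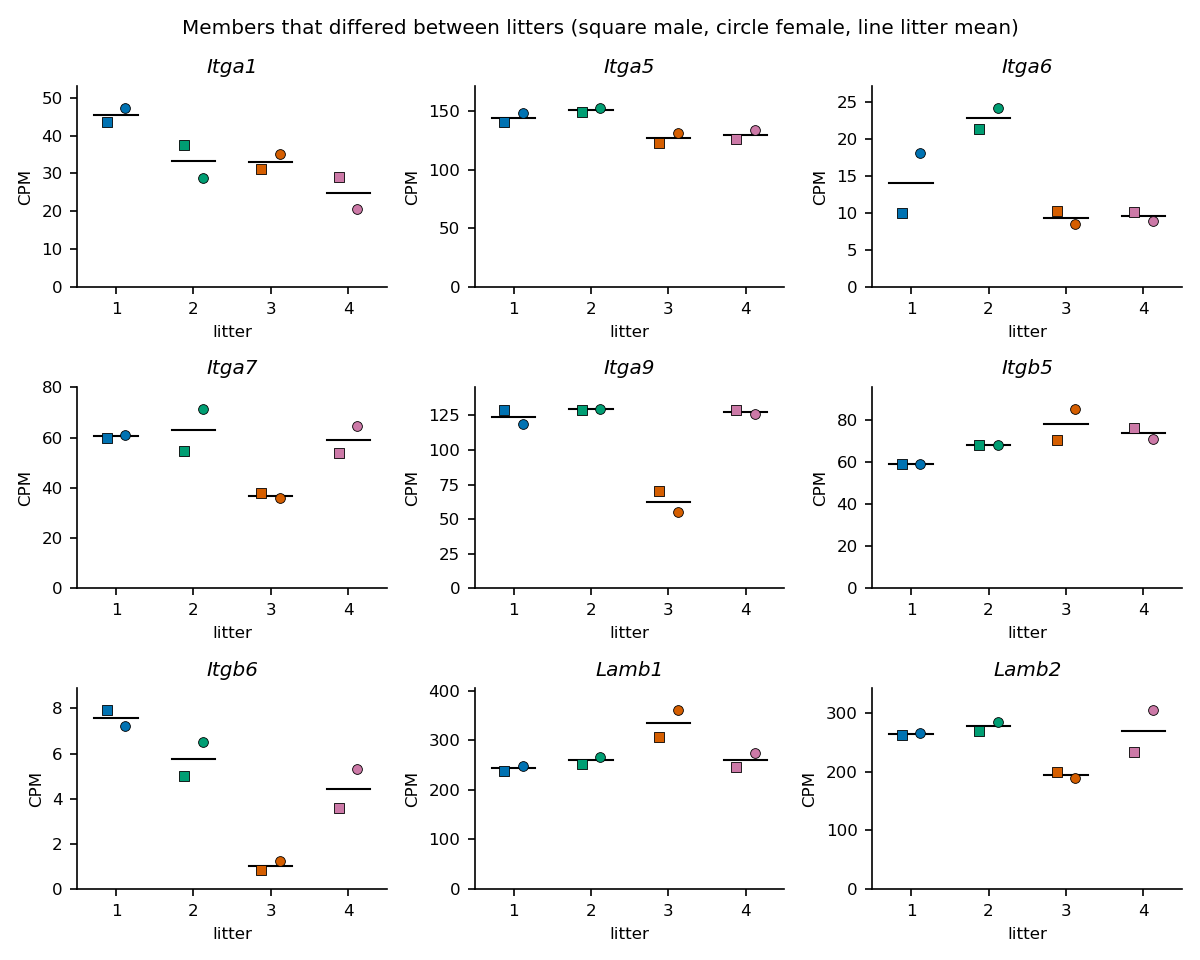
CPM of the 9 members that differed between litters is plotted for each library against litter, with squares for males, circles for females and a line at the litter mean; each vertical axis starts at 0. Itga9 lies at 70.2 and 54.8 CPM in litter 3 and at 119 to 130 CPM elsewhere, and Itga6 is highest in litter 2.

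Among the 15 tested members that did not pass by litter, a set in part picked for low variation, genes with more counts varied least. Over 8 libraries the coefficient of variation was 6.47% for Lama4, 7.81% for Itga3, 8% for Lamc1, 10.5% for Lama5, 10.6% for Itgb1 and 10.7% for Lama2. Rarely read genes varied more, with 58.7% for Itgb8 (7 to 51 counts), 39% for Itga8 (11 to 43) and 38.8% for Itga10 (13 to 47). The members called by litter, left out here, ran from 8.14% for Itga5 to 56.2% for Itgb6, with 15% for Lamb1 and 16.3% for Lamb2. Of the windows of Itga10, 29.3% also occur in Gm42957 on the same strand, so its level is uncertain. Lama3 and Lamb3, laminin chains best known from epithelia, had 4.97 to 9.24 and 8.15 to 12.9 CPM. Itgav had 11.3 to 24.2 CPM.

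Blood cell subunits were read with few counts of their partners. Itgal, the leukocyte subunit that pairs with Itgb2, had 16 to 84 counts per library, whereas Itgb2 had 0 to 2, Itgam and Itgax 0 to 1, and Ptprc 0 to 1. Itga2b, the platelet subunit that pairs with Itgb3, had 32 to 55 counts, against 3 to 20 for Itgb3 and at most 3 for the platelet factor gene Pf4. Of the other listed markers, Cd68, of the macrophage list, had 51 to 186 counts and Gp1bb, of the platelet list, 8 to 17. Neither Itgal nor Itga2b shared a window of 100 bases with another gene.

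The comparison of sexes asked whether any member differs between newborn males and females. In edgeR's quasi-likelihood test 0 of 24 members passed, against 0.0436% of all genes, and 0 passed in DESeq2 as well. At an unadjusted p-value under 0.05 there were 3 members (12.5%, against 2.22% of all genes). Itgb1 had 638, 624, 580 and 623 CPM in males and 592, 502, 539 and 475 CPM in females of litters 1 to 4. The male was above the female in 4 of 4 litters but the groups overlapped; male minus female was 0.23 on the log2 scale (SE 0.09, edgeR adjusted p = 1). Itga3 was lower in the male in all 4 litters, at 54.9 ± 1.26 against 61.9 ± 3.77 CPM (SD, n = 4), or -0.17 on the log2 scale (SE 0.07, edgeR adjusted p = 1). Itgb8, which like Itgb6 binds latent TGF-β as a partner of Itgav, averaged 1.25 ± 0.614 CPM over males and 0.601 ± 0.177 CPM over females, from 7 to 51 counts, a log2 difference of 1.04 (SE 0.39, edgeR adjusted p = 1), which was 0.64 without the male of litter 2; the male was above the female in 4 of 4 litters.

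With litter as a block, which sets each male against the female of its litter, again 0 of 24 passed, against 0.211% of all genes. At an unadjusted p-value under 0.05 there were 6 members (25%, against 11.6%). Itgb1 had the lowest adjusted p-value at 0.223 (log2 fold change 0.23, SE 0.06), and Itgb8, Itgav, Itga3, Lamb1 and Lama5 had 0.295 to 0.361. Lama5 and Lamb1 were lower in the male in 4 of 4 litters, by -0.16 and -0.14. In this fit 5 of 8 fibroblast markers and 1 of 10 endothelial markers passed, and their part in the members' values was not tested. None of 6 shares passed between sexes in an exact permutation test (two-sided, over 35 splits, smallest possible p 0.0286): p ran from 0.114 for Itgb1, at 88.3 ± 1.05% in males and 86.1 ± 2.09% in females, to 0.943 for Itga7, and adjusted over 6 shares from 0.513 to 0.943. The share of Itgb1 was higher in the male in 4 of 4 litters. With the sign of each male-female difference flipped within litters, an exact test added after seeing the data, its p was 0.125, the smallest that 4 litters allow.

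Genes that work beside the members were counted from lists, with the 3 of widest range named. Of 28 tested adhesion adaptors and kinases 14 differed by litter, and in litter 3 10 were lower and 2 higher. For these lists the shares over all genes are 32.1% by litter, and 14.8% lower and 13.6% higher in litter 3. Lims2, an adaptor of integrin-linked kinase, had 1.38 to 1.78 CPM in litter 3 and 2.01 to 5.16 CPM elsewhere. Fermt3, the kindlin of blood cells, was higher there, at 4.82 and 6.12 against 1.81 to 5.13 CPM, with overlap. Ptk2b, a relative of focal adhesion kinase, had 39.9 and 38.9 CPM against 16.7 to 22.4 CPM, a log2 difference of 1.03 (SE 0.08, edgeR adjusted p = 6.77e-06). Itgb1bp2, which encodes melusin, the muscle protein that binds the Itgb1 tail, was chosen after its values were seen: it had 150 and 143 CPM against 189 to 238 CPM (-0.58, SE 0.06, adjusted p = 5.28e-05).

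Basement membrane partners differed by litter in 11 of 16 cases, with 6 lower and 4 higher in litter 3. Col15a1, Col18a1 and Nid1, the last of which links laminin to collagen IV, had the widest ranges, and litter 3 differed by -2.32, -1.14 and -0.68 (adjusted p = 0.00142, 0.0106 and 0.0155). Of the other laminin receptors 3 of 8 differed by litter, near the share of all genes: Sdc3, Sdc1 and Sdc2, with -0.90, -0.52 and 0.56 in litter 3 (adjusted p = 6.21e-05, 0.0278 and 0.000181). Of 16 integrin ligands 11 were tested and 9 differed by litter; 7 were lower and 1 higher in litter 3, with a median of -1.10 over the list. Tnc, the tenascin that Itga9 binds, had 0.217 and 0.206 CPM there against 0.798 to 4.45 CPM (-3.00, SE 0.44, adjusted p = 0.000471). Icam1 (-2.49) and Fn1 (-1.83), the ligands of Itgal and Itga5, had the next widest ranges over litters, with adjusted p-values of 0.0194 and 1.99e-05; Icam1 was at 0.217 and 0 CPM in litter 3, and both Tnc and Icam1 lay there near the limit that a count of 0 allows. Fibroblast markers moved with this list, as given above for litter 3, but Postn is in both lists.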

How the data were processed

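RNA of purified cardiomyocytes from 8 pups was read as single-end reads of 100 bases aimed at 20 M per library, from 1 µg of total RNA in a stranded kit, per the labels' protocols; the labels name the molecule as poly(A) RNA. The authors deposited raw counts per gene symbol. STAR 2.7.3a and mm10 are named in the submitters' processing notes; the counting program, annotation and strand setting are not given in the sources used here. No column belonged to another sample.

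Members, lists and tests were chosen with earlier results of these data known. R 4.3.3 and edgeR 4.0.16 were used: filterByExpr on sex kept 13771 genes, TMM scaled the libraries, and quasi-likelihood F tests compared sexes without a litter term and litters in a model with sex, with Benjamini-Hochberg adjustment over all genes and a threshold of 0.05. Each litter was also set against the mean of the other 3; these contrasts share libraries. The SE is the log2 value over the square root of F. DESeq2 1.42.0 was an alternative, as were other scalings, filters, thinning, the litter block and leaving out libraries or litters. CPM values use TMM library sizes over tested genes, and lengths are unions of exons in GENCODE M21 (GRCm38, the build mm10 names).

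Any member past the filter could be named, those called are given in every library, and each pathway list is given by the 3 called genes of widest litter range. Labels give the number of a sample as its litter, so the numbers pair male and female: after removal of sex means, same-litter correlations across genes were 0.367 to 0.696, and those of different litters -0.482 to 0.27. On simulated counts for 13666 genes with 200 changed 2-fold, the sex test recovered 100% with 7.83% false calls, and the litter test 92.5% with 5.13%. These rates hold for the simulated spread and do not say how often a member with few counts would be called. In the data Itgb8, at a log2 difference of 1.04 between sexes (SE 0.39), did not pass. P-values rest on these 8 pups alone. In the sex test without a litter term they are set against the spread among pups of the same sex. In the litter tests, and in the sex test with the litter block, they are set against the spread left within litters. Sequences are RefSeq's. The values of 1 tested member are not reported here or drawn in the figures, but it is in the counts of members.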

Additional observations from a re-analysis of the deposited data

Results flagged for a closer look

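Among the 4 males, and among the 4 females, the extreme libraries were set against the other 3 for 24 members and 6 shares. A library stood far outside the other 3 in 6 of 60 groups, where chance gives about 3, and these groups use the same libraries. Itga9 was far below in the male of litter 3, at 70.2 CPM against 129 in each of the others, and in the female of litter 3, at 54.8 CPM against 119 to 130 CPM. In the female of litter 3 the share of Itga7 was also low, at 28.7% against 37.5 to 39.1%, as was that of Lamb2, at 45.1% against 62.1 to 63.2%. The male of litter 3 was lowest of the males in both shares too, at 30.6 and 50%, without standing as far apart. Itga6 was far above in the male of litter 2, at 21.3 CPM against 10 to 10.2 CPM, and this library had the highest endothelial sum of the males, 114 against 21.3 to 42.7 CPM. Itgal was high in that same male, at 3.49 CPM against 2.18 to 2.34 CPM. The causes were not tested.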

How the results depend on the processing

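Over all genes, the sex test gave 6 calls and 29 with the replicate block, and 5 to 8 when a library or litter was left out, while the members had 0 in each fit. The litter test gave 4427 calls over all genes and 1898 to 4586 without a library or litter, and among the members 9 calls and 5 to 11, the fewest in both cases without litter 3. Calls among the members against the mean of the other litters ran from 1 to 8 for litter 1 (6 in all libraries), 1 to 5 for litter 2 (3), 5 to 11 for litter 3 (8) and 1 to 4 for litter 4 (2) in those fits. With no filter on low counts, litter 2 had 6 and litter 4 had 6, and with library size alone litter 4 had 5; the cause was not tested. Without litter 3, Itga9 in litter 1 and Itgb6 in litter 2 turned to -0.05 and -0.03, whereas Itgb6 in litter 2 reached 1.44 without litter 1. A fit without 1 pup leaves its litter with 1 library, assumed to vary like the others.

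Mean shares moved with the gene length. With the longest transcript they were 46.8% for Itga7, 90.8% for Itga5, 33.6% for Lama2, 47.4% for Lamb2 and 90.5% for Lamc1, and without a length correction 42.8, 87.3, 37.7 and 46.9% for the first 4 of these, because the divisor changes. Differences of shares between sexes, in percentage points, ran over fits without 1 library from -2.07 to 2.32 for Itga7 (0.383 in all), -1.39 to 0.47 for Lama2 (-0.363), -3.99 to 3.2 for Lamb2 (0.362) and 1.68 to 3.21 for Itgb1 (2.2, with p = 0.0286 in the exact permutation test without the female of litter 1). The block changed no call of a member. Sign flips within litters, an alternative added after seeing the data, cannot give a p under 0.125 with 4 litters. They could therefore not have called any share. Genes with few counts, such as Itgb8, Itga8 and Itga10, are limited by depth.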
